A study of Rattus norvegicus with 2 samples.

Results

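The 9 genes described here are interferon-stimulated genes and transcription factors of interferon signalling: Bst2, Ifitm2, Ifitm3, Isg15, Stat2, Irf1, Irf7, Irf9 and Psmb8. They were taken from the series' gene expression table by their symbols, and all 9 have a row among its 18049 genes. The set was chosen by measured values of the same siHsc70 against siSCR comparison, so the values below describe these genes and support nothing further. Rat oligodendrocyte precursors, the dividing glial cells that become myelin-forming oligodendrocytes, had been panned from the cortex of newborn pups and electroporated either with siHsc70, an siRNA against the chaperone HSC70 (gene Hspa8), or with the scrambled siRNA siSCR. Both groups were wild type and were differentiated with the thyroid hormone T3 (60 nM) to day 2, a stage that the series' design text calls immature oligodendrocytes. Both shared a medium with CNTF, forskolin, insulin, biotin and the supplements B-27 and N2, from which PDGF-AA, bFGF and NT3 had been removed. The labels give a single siRNA sequence for siHsc70. There was 1 library of total RNA in each group, so no difference could be set against a spread between cultures and no p-value is given. Neither a rat strain nor the purity of the panned cells is given in the labels.

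Interferons are secreted proteins by which cells signal infection. Type I interferons bind the receptor chains IFNAR1 and IFNAR2, whose kinases JAK1 and TYK2 activate STAT proteins, STAT2 among them. With IRF9 these form the complex ISGF3, which binds a DNA element called the interferon-stimulated response element (ISRE). Type II interferon acts through the gamma-activated site (GAS), with Irf1 as a classical target. The induced genes include membrane proteins that hold back enveloped viruses, the ubiquitin-like modifier ISG15, and subunits of the immunoproteasome, which cuts peptides for presentation on MHC class I. Oligodendrocyte precursors are known to respond to interferon-gamma with higher MHC class I and immunoproteasome expression.

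The promoters of these genes are shown because the letters of both elements can be read in them. Windows from 250 bases before to 50 bases after each gene's start were taken from RefSeq (rat build GRCr8) and were found for 8 of the 9 genes, all but Isg15. The ISRE core was searched on both strands as GAAA, any 2 bases and GAAA, and the GAS core as TTC, any 3 bases and GAA, which reads the same on either strand. Each stretch below holds the matches in capitals, with up to 30 bases on either side.
Bst2, chr16:18255053-18255134, minus strand: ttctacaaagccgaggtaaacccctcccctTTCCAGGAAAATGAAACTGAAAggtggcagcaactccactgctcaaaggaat
Ifitm2, chr1:205482342-205482411, minus strand: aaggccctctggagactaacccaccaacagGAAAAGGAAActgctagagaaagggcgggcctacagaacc
Ifitm3, chr1:205541753-205541832, minus strand: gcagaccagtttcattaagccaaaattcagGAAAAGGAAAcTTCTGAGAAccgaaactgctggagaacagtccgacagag
Psmb8, chr20:4656996-4657065, minus strand: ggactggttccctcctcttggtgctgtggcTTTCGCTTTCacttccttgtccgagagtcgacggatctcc
Irf7, chr1:205800053-205800122, minus strand: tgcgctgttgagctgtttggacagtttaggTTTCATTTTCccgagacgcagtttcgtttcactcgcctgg
Irf1, chr10:38417763-38417831, plus strand: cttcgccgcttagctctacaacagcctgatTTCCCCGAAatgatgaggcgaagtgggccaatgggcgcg
Irf9, chr15:33065707-33065775, plus strand: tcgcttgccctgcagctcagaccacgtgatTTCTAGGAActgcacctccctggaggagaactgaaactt
In Bst2 the GAS core (-137 to -129 from the start) runs into an ISRE core (-131 to -122), which overlaps a second one (-125 to -116), so the capitals form 1 block. The ISRE core lay at -33 to -24 in Ifitm2 and at -44 to -35 in Ifitm3, and the run caggaaaaggaaact, 15 bases long, was the longest shared by the windows of these neighbouring paralogs. In Psmb8 the ISRE core spans the start itself (-4 to 6), and a GAS core lies far upstream at -245 to -237. Stat2 held neither run of letters. The ISRE core was thus found in 5 genes (Bst2, Ifitm2, Ifitm3, Psmb8 and Irf7) and in none of the windows of Stat2, Irf1 and Irf9. Over all 33469 windows 3.92% held an ISRE core and 8.87% a GAS core. A match describes letters in a window and is not a measured binding site.

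The libraries held 18130828 counts for siHsc70 and 19085641 for siSCR after rounding, and the floor of 3 counts was 0.167 CPM in siHsc70 and 0.156 CPM in siSCR. CPM are counts scaled to a common library total, and the 13518 genes that averaged 1 CPM or more are called measured. The targeted gene Hspa8 was at 507 CPM in siHsc70 and 1399 CPM in siSCR. The oligodendrocyte lineage genes of a list of 12 were all measured, with a summed level of 3080 CPM in siHsc70 and 8496 CPM in siSCR. In bulk RNA, fewer cells of a type and less RNA per cell cannot be told apart. All 9 genes were measured. Each difference is the log2(CPM + 1) of siHsc70 less that of siSCR, a scale that understates the change of low genes, and a size of 1 or more is called at least 2-fold. Ratios are of normalised counts without the pseudocount, with 95% exact (Clopper-Pearson) intervals that cover counting error only.

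Of the 9 genes 1, Bst2, was at least 2-fold higher in siHsc70 and 0 were at least 2-fold lower, where 2.29% of all measured genes were at least 2-fold higher and 5.15% at least 2-fold lower. With a 1.5-fold rule 4 were higher and 0 lower, against 9.65% and 12.1% of all measured genes. The interval of the ratio lay above 1 for 5 genes (Bst2, Ifitm2, Ifitm3, Psmb8 and Irf7) and below 1 for 0 genes, where 32.5% of measured genes had an interval above 1 and 33.8% one below. The other 4, Isg15, Stat2, Irf1 and Irf9, had intervals that included 1. The median difference of the 9 genes was 0.37, beside -0.0035 for all measured genes. The set was chosen on this contrast, so nothing is read from these shares.

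**Figure D1:**
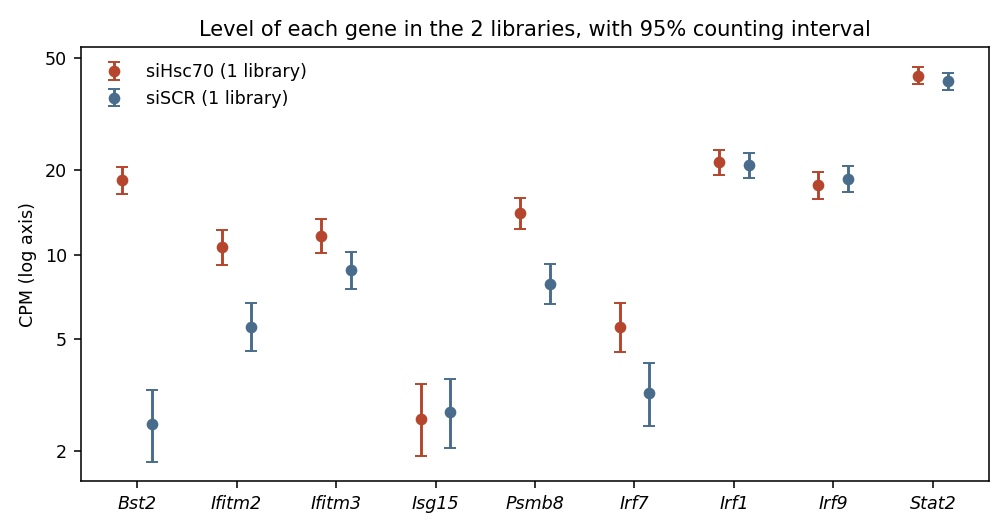
Level of each of the 9 genes in CPM (log axis) in the siHsc70 library and the siSCR library, 1 library each, with 95% exact Poisson intervals of the count. Bst2 stands at 18.5 CPM in siHsc70 and 2.50 CPM in siSCR, while the points of Isg15, Irf1, Irf9 and Stat2 lie within each other's intervals.

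Bst2 (gene ID 378947), which differed most of the 9 genes, encodes tetherin, which holds budding virus particles at the cell surface. It had 332 counts in siHsc70 and 48 in siSCR, or 18.5 CPM (95% interval 16.5 to 20.6) in siHsc70 and 2.50 CPM (1.84 to 3.31) in siSCR. The intervals of the libraries were far apart, and the ratio was 7.40 (5.45 to 10.2). Its difference of 2.48 was exceeded by 13 of the 13518 measured genes. With a pseudocount of 5 the difference was 1.65, since Bst2 is low in siSCR.

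Ifitm2 and Ifitm3 (gene IDs 114709 and 361673) encode small membrane proteins that block the fusion of viruses entering through endosomes. Ifitm2 had 192.33 estimated counts in siHsc70 and 107 in siSCR, which is 10.7 CPM in siHsc70 and 5.56 CPM in siSCR, a ratio of 1.92 (1.51 to 2.46). Ifitm3 had 209.67 estimated counts in siHsc70 and 169.99 in siSCR, which is 11.7 CPM in siHsc70 and 8.84 CPM in siSCR, a ratio of 1.32 (1.07 to 1.63). The level intervals of Ifitm2 were separate and those of Ifitm3 just overlapped. All but the siSCR count of Ifitm2 are not whole, and in siHsc70 the counts of both genes add up to 402, so reads appear divided between the paralogs and the split is uncertain. In siSCR the count of Ifitm3 becomes whole only with the 2.01 counts of Ifitm1, for a sum over the 3 rows of 279. The sum of Ifitm2 and Ifitm3 was 22.4 CPM in siHsc70 and 14.4 CPM in siSCR, a ratio of 1.55 (1.33 to 1.82).

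Among the other IFITM rows, Ifitm1 was at 0 counts in siHsc70 and 2.01 in siSCR, both under the floor of 3 counts. Of the 6 family rows, 4 were measured. All 4 were higher in siHsc70 by some amount, where 49.7% of measured genes were. Ifitm2 and Ifitm3 among them were chosen on this contrast. The ratio intervals of the others, Ifitm5 (0.858 to 3.35) and Ifitm10 (0.985 to 1.35), included 1, so nothing is read from this count. Of the 4, Ifitm2 differed most, and 0 of them passed the 2-fold rule. Ifitm10, named after its values were seen, was at 18.7 CPM in siHsc70 and 16.3 CPM in siSCR.

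Isg15 (gene ID 298693), which encodes the modifier that is attached to proteins in place of ubiquitin, did not follow Bst2. It had 47 counts in siHsc70 and 53 in siSCR, or 2.61 CPM in siHsc70 and 2.75 CPM in siSCR, and its ratio of 0.949 had an interval of 0.627 to 1.43. A difference within that interval was not detectable at these counts. Of 6 genes for ISG15 and its conjugation, 5 were measured and 0 passed the 2-fold rule in either direction, with a median of 0.19. Trim25, encoding a ligase that acts in RIG-I signalling, was the furthest from 0, at 9.34 CPM in siHsc70 and 6.24 CPM in siSCR, a ratio of 1.498 (1.18 to 1.91). Usp18, which removes ISG15 and was named after its values were seen, was at 18 counts in siHsc70 and 12 in siSCR.

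Psmb8 (gene ID 24968) encodes the immunoproteasome subunit that takes the place of the constitutive subunit encoded by Psmb5. It had 252.69 estimated counts in siHsc70 and 152 in siSCR, or 14.1 CPM in siHsc70 and 7.90 CPM in siSCR, a ratio of 1.78 (1.45 to 2.19), and the intervals of the libraries did not meet. Psmb5 was at 99.1 CPM in siHsc70 and 88.7 CPM in siSCR, a ratio of 1.12 (1.045 to 1.195). On the deposited TPM, which is scaled for length, Psmb8 stood at 11.0% of Psmb5 in siHsc70 and at 6.90% in siSCR. The other inducible subunits went in different directions. Psmb9 was higher in siHsc70, at 11.7 CPM against 7.95 CPM in siSCR, a ratio of 1.47 (1.19 to 1.82), and stood at 9.91% of the TPM of its counterpart Psmb6 in siHsc70 and 7.43% in siSCR. Psmb10 was lower, at 18.1 CPM in siHsc70 and 25.8 CPM in siSCR, 1.43-fold lower (1.24 to 1.65), and stood at 10.3% of the TPM of Psmb7 in siHsc70 and 15.9% in siSCR. The 7 constitutive beta subunits had a median of 0.11, and the largest of their differences was 0.16, for Psmb5. With the deposited TPM their median was -0.033, beside -0.13 for all measured genes.

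**Figure D2:**
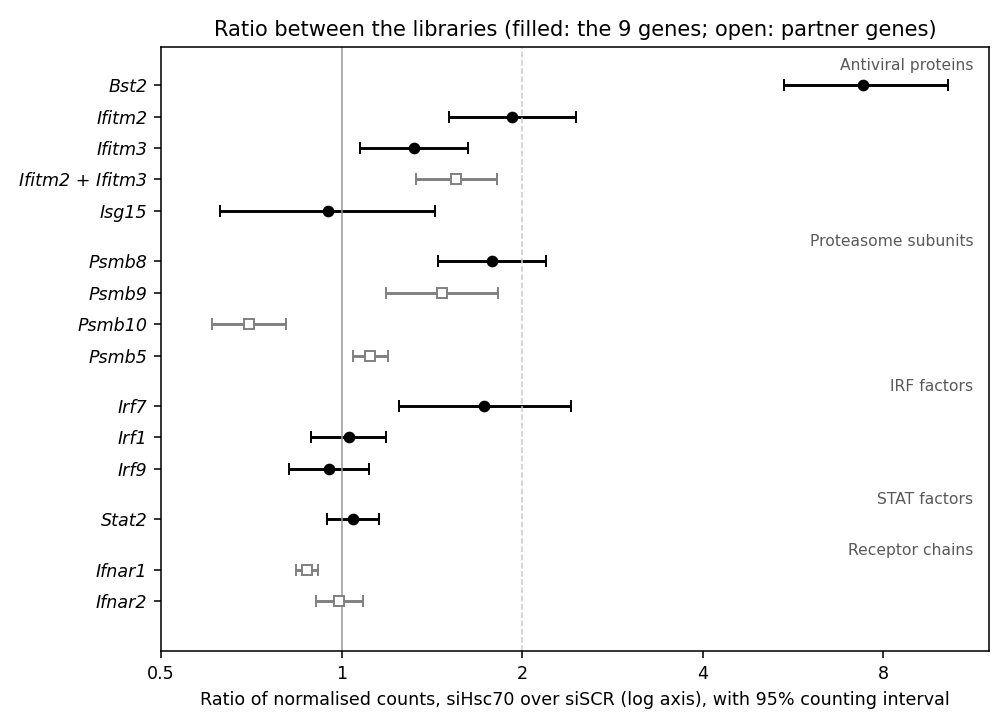
Ratio of normalised counts, siHsc70 over siSCR (log axis), with 95% exact counting intervals, for the 9 genes (filled) and partner genes (open), grouped by role; the dashed line marks 2. Bst2 at 7.40 stands apart, Ifitm2, Ifitm3, Psmb8 and Irf7 lie between 1.32 and 1.92, and Isg15, Irf1, Irf9 and Stat2 have intervals that include 1.

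Of the 3 interferon regulatory factors, 1 was higher. Irf7 (gene ID 293624), the factor that amplifies type I interferon production, had 100 counts in siHsc70 and 62 in siSCR, or 5.56 CPM in siHsc70 and 3.22 CPM in siSCR. Its ratio was 1.73 (1.24 to 2.41), with separate intervals for the libraries at a low level in both. Irf1 (gene ID 24508), a factor induced by interferon-gamma, had 385 counts in siHsc70 and 401 in siSCR, or 21.4 CPM in siHsc70 and 20.8 CPM in siSCR. The libraries overlapped, with a ratio of 1.03 (0.891 to 1.18). Irf9 (gene ID 305896), the DNA-binding subunit of ISGF3, had 319 counts in siHsc70 and 358 in siSCR, or 17.7 CPM in siHsc70 and 18.6 CPM in siSCR, again overlapping, with a ratio of 0.953 (0.817 to 1.11). Of the 9 IRF genes 7 were measured and 0 passed the 2-fold rule, with a median of 0.0079, or -0.13 with the deposited TPM. In that unit the median of all measured genes was -0.13 too. Irf1, Irf7 and Irf9, chosen on this contrast, are among the 7, and the other 4 had a median of -0.024 in CPM. Irf8, a factor of microglia and other myeloid cells that was named after its values were seen, was at 7 counts in siHsc70 and 5 in siSCR.

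Stat2 (gene ID 288774), a subunit of ISGF3, was the best counted of the 9 genes and was level. It had 781 counts in siHsc70 and 800 in siSCR, or 43.4 CPM in siHsc70 and 41.6 CPM in siSCR, a ratio of 1.04 (0.945 to 1.15). Of 7 STAT genes 6 were measured, with a median of -0.078. Stat2, chosen on this contrast, is among the 6, and the other 5 had a median of -0.098. Of the 6, 1 was at least 2-fold higher and 0 at least 2-fold lower, where 2.29% and 5.15% of all measured genes were. That gene was Stat6, which carries interleukin-4 signals, at 17.8 CPM in siHsc70 and 7.95 CPM in siSCR, a ratio of 2.24 (1.84 to 2.73). Its call was lost with the deposited TPM, where the difference was 0.92. Stat3, named after its values were seen, was at 255 CPM in siHsc70 and 356 CPM in siSCR, 1.40-fold lower (1.35 to 1.45).

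On the length-scaled TPM the order of the genes differed between the libraries. In siHsc70 the highest was Bst2 at 48.6 TPM, then Ifitm3 at 40.0, Ifitm2 at 35.0, Psmb8 at 25.8, Stat2 at 22.5, Irf1 at 20.5 and Irf9 at 17.4 TPM, with Isg15 at 6.72 and Irf7 at 5.32 TPM lowest. In siSCR Ifitm3 led at 33.4 TPM, then Stat2 at 23.6, Irf1 at 22.0, Irf9 at 21.0, Ifitm2 at 20.1 and Psmb8 at 15.99 TPM. Isg15 at 7.46, Bst2 at 7.24 and Irf7 at 3.43 TPM came last there. Bst2 was thus first of 9 in siHsc70 and eighth in siSCR. With 1 library per group, whether neighbours in either order differ beyond the spread of cultures was not testable.

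The sign of Stat2 and Irf1 differed between TMM-scaled CPM and the deposited TPM. With the deposited TPM the median of all measured genes was -0.13, and the split of genes past 2-fold was 189 higher and 795 lower, beside 310 higher and 696 lower with TMM-scaled CPM. Stat2 and Irf1, at 0.061 and 0.037 in CPM, were at -0.067 and -0.097 in TPM. Both were above 0 in the other 7 settings run for single genes, and Isg15 and Irf9 were below 0 in all 8. The 5 genes with intervals above 1 had differences above 0 in each of these 8 settings, from 0.25 to 0.42 for Ifitm3 and from 1.65 to 2.84 for Bst2.

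**Figure D3:**
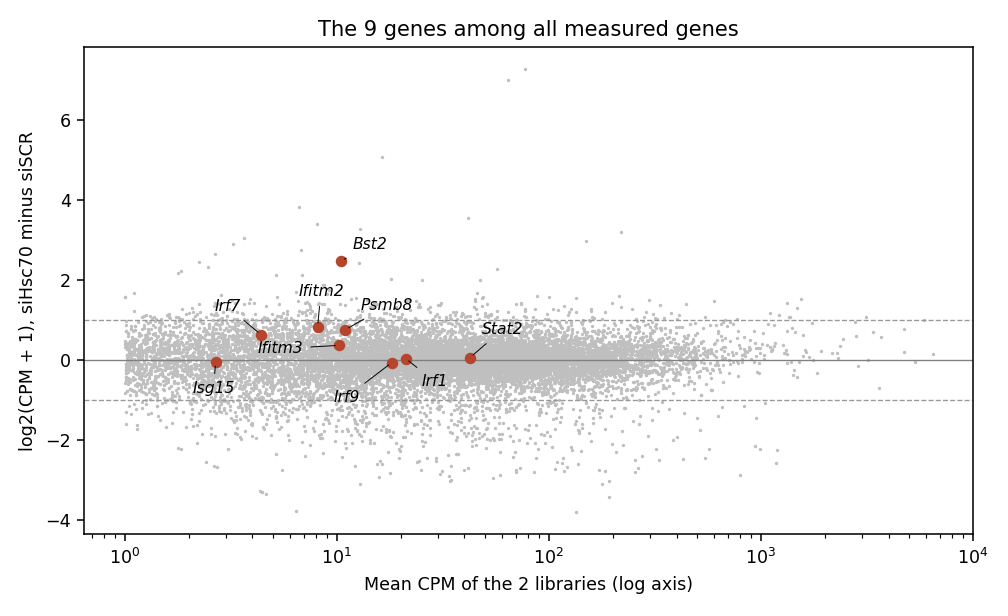
Difference in log2(CPM + 1), siHsc70 minus siSCR, against the mean CPM of both libraries (log axis) for all 13518 measured genes (grey), with the 9 genes in red and dashed lines at a 2-fold difference. Bst2 at 2.48 lies near the upper edge of the cloud, and the other 8 genes lie between -0.066 and 0.83.

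Other interferon-stimulated antiviral genes were mostly higher in siHsc70 by less than 2-fold. Of 53 listed genes with a row, 38 were measured, 4 of them members of the set. Among the remaining 34, 2 were at least 2-fold higher and 0 at least 2-fold lower, 14 were at least 1.5-fold higher (41.2%) and 1 at least 1.5-fold lower, and the median was 0.48. The interval of the ratio lay above 1 for 26 of these 34 genes (76.5%) and below 1 for 4. Of all measured genes 2.29% were at least 2-fold higher, 9.65% at least 1.5-fold higher and 12.1% at least 1.5-fold lower, and 32.5% had an interval above 1 and 33.8% one below. The share with an interval above 1 depended on level, from 25.2% at a mean of 1 to 10 CPM to 44.4% at 100 CPM or more. The list was chosen with earlier results of these data known, so its shares are a description only. Ifi27l2b, of the interferon-inducible ISG12 family, was at 31.5 CPM in siHsc70 and 12.7 CPM in siSCR, a ratio of 2.48 (2.13 to 2.89). The remaining gene past 2-fold, Xaf1, was named after its values were seen. It encodes a proapoptotic zinc-finger protein and was at 11.1 CPM in siHsc70 and 4.16 CPM in siSCR, a ratio of 2.66 (2.04 to 3.49).

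Further members of that list were also named after their values were seen. Gbp2, a guanylate-binding GTPase gene, was at 265 CPM in siHsc70 and 145 CPM in siSCR, a ratio of 1.84 (1.75 to 1.93). Ifit2, whose product binds RNA and restrains translation, was at 6.45 CPM in siHsc70 and 3.27 CPM in siSCR, a ratio of 1.97 (1.44 to 2.72). Oasl2, of the oligoadenylate synthetase family, was at 4.11 CPM in siHsc70 and 1.66 CPM in siSCR, a ratio of 2.47 (1.61 to 3.87), which is under 2-fold on the log2(CPM + 1) scale. Rsad2, Ifit1 and Mx1, textbook interferon-induced genes, were low. Rsad2 had 9 counts in siHsc70 and 2 in siSCR, Ifit1 0 counts in siHsc70 and 2.5 in siSCR, and Mx1 5.1 counts in siHsc70 and 12.84 in siSCR.

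Mx2 and Adar were lower in siHsc70. Mx2, encoding a dynamin-like GTPase, was at 14.6 CPM in siHsc70 and 26.6 CPM in siSCR, 1.82-fold lower (1.57 to 2.12), and with the deposited TPM its difference was -1.27, past the 2-fold rule. Adar, encoding an RNA-editing enzyme, was at 74.9 CPM in siHsc70 and 95.1 CPM in siSCR, 1.27-fold lower (1.18 to 1.36). Eif2ak2, encoding the double-stranded RNA kinase PKR, was slightly higher, at 74.2 CPM in siHsc70 and 68.3 CPM in siSCR, a ratio of 1.087 (1.006 to 1.174). All 3 were named after their values were seen.

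Genes of peptide processing and MHC class I presentation were also mostly higher by less than 2-fold. Of 24 listed genes with a row, 21 were measured, and of the 20 other than Psmb8, 0 were at least 2-fold higher or lower, 8 were at least 1.5-fold higher and 18 were higher by any amount, with a median of 0.53. The interval lay above 1 for 17 of the 20 genes and below 1 for 2, Psmb10 and Calr. Among all measured genes the shares were 9.65% at least 1.5-fold higher, 49.7% higher by any amount, 32.5% with an interval above 1 and 33.8% with one below. The presentation list too was chosen with earlier results of these data known, so its shares are a description only. RT1-A1, a rat class I heavy chain gene, differed most, at 24.3 CPM in siHsc70 and 12.2 CPM in siSCR, a ratio of 1.99 (1.70 to 2.35). Class I rows share reads, as their non-whole counts show, and the sum of the 6 measured class I rows was 190 CPM in siHsc70 and 118 CPM in siSCR, a ratio of 1.60 (1.52 to 1.69). B2m, Tap1 and Tap2 were chosen for naming after their values were seen. B2m, the class I light chain, was at 391 CPM in siHsc70 and 271.5 CPM in siSCR, a ratio of 1.44 (1.39 to 1.49). Tap1 and Tap2, the peptide transporter genes, had ratios of 1.54 (1.39 to 1.71) and 1.74 (1.496 to 2.035).

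MHC class II genes, also named after their values were seen, were near the floor. Cd74, Ciita and RT1-Db1 had 0 counts each in siHsc70, and at most 3 counts each in siSCR.

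**Figure D4:**
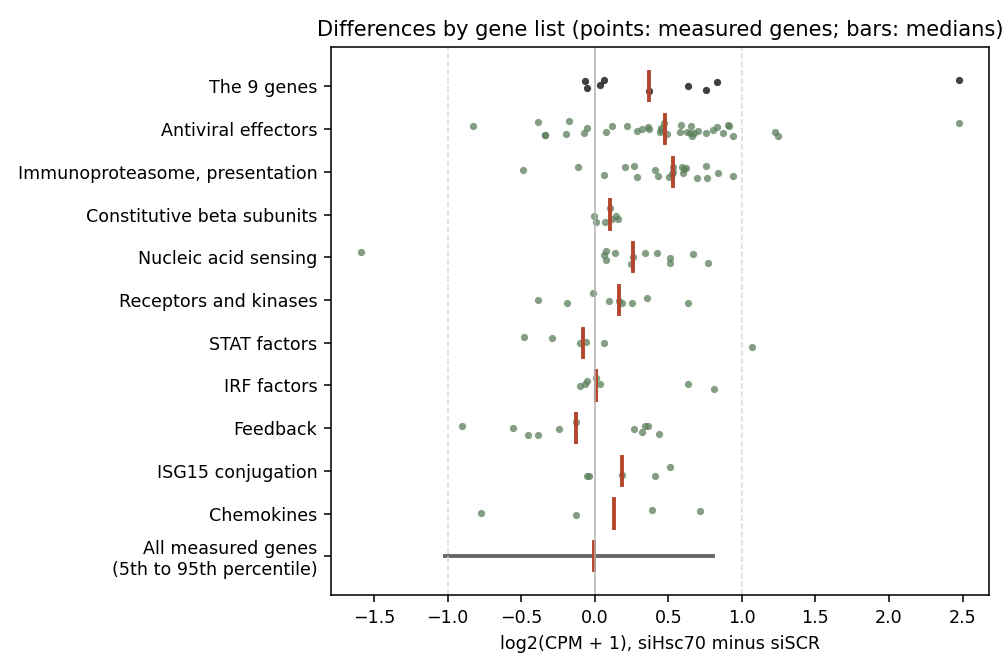
Difference in log2(CPM + 1), siHsc70 minus siSCR, of each measured gene (points) in the 9-gene set and in lists of interferon-related genes, with each list's median (red bar) and, at the bottom, the 5th to 95th percentile of all measured genes. The medians of the antiviral list (0.48, the set's members included) and the presentation list (0.53, Psmb8 included) lie right of 0. Those of the STAT list (Stat2 included) and the IRF list (Irf1, Irf7 and Irf9 included) lie at -0.078 and 0.0079. With the deposited TPM the median was -0.13 for the IRF list and -0.13 for all measured genes.

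Ligand and receptor genes stand upstream in the pathway. The 4 interferon rows (Ifna1, Ifna2, Ifne and Ifnk) had 5 or fewer counts each in both libraries. Ifnb1 and Ifng were looked for and had no row, so they have no values here. Of 9 receptor and kinase genes, all measured, 0 passed the 2-fold rule, with a median of 0.17, or 0.048 with the deposited TPM. All measured genes had a median of -0.13 in TPM. Ifnar1 was at 218 CPM in siHsc70 and 248 CPM in siSCR, a ratio of 0.877 (0.840 to 0.915), and Ifnar2 at 52.5 CPM in siHsc70 and 53.0 CPM in siSCR, a ratio of 0.991 (0.906 to 1.08). Il10rb, a receptor chain shared by interleukin-10 and interferon-lambda, was the furthest from 0, at 36.4 CPM in siHsc70 and 23.1 CPM in siSCR, a ratio of 1.58 (1.40 to 1.78).

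Of 16 nucleic acid sensing genes with a row, 13 were measured. None (0) was at least 2-fold higher and 1 was at least 2-fold lower, where 2.29% and 5.15% of all measured genes were. The median was 0.26, or 0.11 with the deposited TPM, where all measured genes had -0.13. By any amount 12 of the 13 were higher, where 49.7% of measured genes were, and 8 were with the deposited TPM. The interval lay above 1 for 7 and below 1 for 1, where 32.5% and 33.8% of measured genes had such intervals. This list was also chosen with earlier results known, so its shares are a description only. The lower gene was Aim2, encoding a sensor of cytosolic DNA, with 6.06 counts in siHsc70 and 57.99 in siSCR. It was 9.04-fold lower (3.91 to 25.6), and its call was lost with a pseudocount of 5. Tlr3, a receptor for double-stranded RNA, and Ticam1, its adaptor, were named after their values were seen. Tlr3 was at 16.9 CPM in siHsc70 and 10.2 CPM in siSCR, and Ticam1 at 11.2 CPM in siHsc70 and 6.18 CPM in siSCR, ratios of 1.65 (1.37 to 1.98) and 1.82 (1.44 to 2.30). Ddx58, encoding the RNA sensor RIG-I, also named after its values were seen, was at 26.9 CPM in siHsc70 and 25.7 CPM in siSCR, a ratio of 1.05 (0.921 to 1.19).

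Of 13 feedback genes 11 were measured and 0 passed the 2-fold rule, with a median of -0.13. Socs2, a suppressor of cytokine and growth hormone signalling, was the furthest from 0, at 17.1 CPM in siHsc70 and 32.8 CPM in siSCR, 1.92-fold lower (1.67 to 2.21), and passed the rule in TPM at -1.098. Socs1, which restrains JAK kinases and was named after its values were seen, was at 10.5 CPM in siHsc70 and 7.48 CPM in siSCR, a ratio of 1.40 (1.12 to 1.76). Of 4 measured chemokine genes 0 passed the rule. Cxcl10, an interferon-induced chemokine gene, was the furthest from 0, at 10.7 CPM in siHsc70 and 18.97 CPM in siSCR, 1.78-fold lower (1.49 to 2.13). Ccl2, named after its values were seen, was at 967 CPM in siHsc70 and 588 CPM in siSCR.

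The promoter windows above can be set beside these values. The 5 genes with an ISRE core had differences from 0.37 (Ifitm3) to 2.48 (Bst2), and the 3 with a window and none, Stat2, Irf1 and Irf9, had differences from -0.066 to 0.061. These genes were chosen on this contrast, so nothing is read from this split. Over the 10645 measured genes with a window, 321 (3.02%) held an ISRE core. Their median difference was 0.10, and that of the 10324 without one was -0.0080. In the antiviral list 23 of 30 measured genes with a window held it, with a median of 0.58, and the 7 without it had a median of 0.45. Bst2, Ifitm2 and Ifitm3, chosen on this contrast, are among the 23. The direction differed between lists. In the presentation list, Psmb8 included, 7 of 18 genes held the core, with medians of 0.61 with it and 0.53 without. In the nucleic acid sensing list 2 of 8 held it, with medians of 0.17 and 0.19. Of 3 chemokine genes 1 held it, at -0.77, and the median without it was 0.13. The IRF, feedback, IFITM and constitutive beta lists had higher medians with it, from 1 or 2 genes each. In the IRF list that gene was Irf7, and in the IFITM list they were Ifitm2 and Ifitm3. All were chosen on this contrast, so nothing is read from those lists. The GAS core was found in 5 members, among them Irf1 and Irf9, and in 7.09% of measured genes. Median differences were 0.018 for measured genes with a GAS core and -0.0066 for those without. Among the members the medians were 0.37 with a GAS core and 0.64 without. As the members were chosen on this contrast, nothing is read from the GAS split either.

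**Figure D5:**
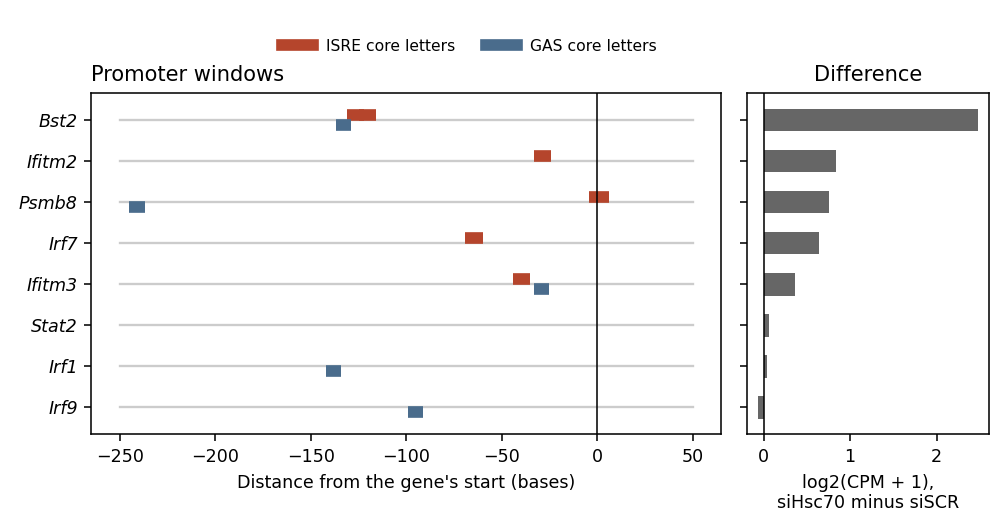
Left, places of ISRE core and GAS core letters in the promoter window of each of 8 genes, as distance from the gene's start in bases; right, each gene's difference in log2(CPM + 1), siHsc70 minus siSCR. Genes run from the highest difference (Bst2, 2.48) to the lowest (Irf9, -0.066), and the ISRE core letters appear in the upper 5 rows. The genes were chosen on this contrast, so nothing is read from that order.

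Marker genes of other cell types were read beside these results, since many interferon-stimulated genes are well expressed in immune, vascular and connective tissue cells. Of 14 microglial markers 10 were in the table and 3 were measured, with a summed level of 102 CPM in siHsc70 and 78.3 CPM in siSCR. Aif1, C1qc and Tyrobp had 1 count each in siHsc70 and 0 in siSCR, and Ptprc, which marks all leukocytes, had 2 counts in siHsc70 and 4 in siSCR. Cd68, a lysosomal gene of phagocytes, was at 4.34 CPM in siHsc70 and 1.66 CPM in siSCR.

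Endothelial markers summed to 12.2 CPM in siHsc70 and 13.2 CPM in siSCR, with 8 of 10 in the table and 4 measured. Of the 4, 2 had an interval of the ratio above 1 and 1 had it below, where 32.5% and 33.8% of all measured genes did. Their median difference was 0.17. Kdr was at least 2-fold lower, with 5 counts in siHsc70 and 44 in siSCR, while Esam and Egfl7, named after their values were seen, had ratios of 2.89 (1.36 to 6.69) and 1.87 (1.30 to 2.73). Fibroblast and mural markers, with 10 of 10 in the table and 6 measured, summed to 182 CPM in siHsc70 and 76.1 CPM in siSCR. Of the 6, 5 had an interval of the ratio above 1 and 0 had it below, where 32.5% and 33.8% of all measured genes did. Among the 6, 3 were at least 2-fold higher, where 2.29% of all measured genes were. Col1a1 was at 73.8 CPM in siHsc70 and 24.3 CPM in siSCR, and Col6a1 at 74.5 CPM in siHsc70 and 32.7 CPM in siSCR. The third was Postn, named after its values were seen, at 6.56 CPM in siHsc70 and 2.70 CPM in siSCR. Lum and Dcn, defining genes of fibroblasts, had 0 counts and 1 count in siHsc70 and 2 and 9 counts in siSCR. The other unmeasured markers of this list, Acta2 and Rgs5, had 13.01 and 2 counts in siHsc70 and 2 and 1 in siSCR.

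Astrocyte markers, with 10 of 10 in the table and 9 measured, summed to 3438 CPM in siHsc70 and 3860 CPM in siSCR. Of the 9, 6 had an interval above 1 and 3 below, where 32.5% and 33.8% of all measured genes did. Their median difference was 0.28, or 0.0082 with the deposited TPM, where all measured genes had a median of -0.13. Among them Gfap was at 667 CPM in siHsc70 and 1416 CPM in siSCR, Aqp4 at 20.6 CPM in siHsc70 and 85.0 CPM in siSCR, and Clu at 181 CPM in siHsc70 and 73.5 CPM in siSCR. Aldh1l1 and S100b, named after their values were seen, had ratios of 1.61 (1.42 to 1.84) and 1.52 (1.46 to 1.58). Neuronal markers, all 10 measured, summed to 336 CPM in siHsc70 and 427 CPM in siSCR. Of the 10, 4 had an interval above 1 and 6 below, with 4 past 2-fold in the lower direction and 0 in the higher. The shares of all measured genes past 2-fold were 5.15% lower and 2.29% higher. Among the 4 lower neuronal markers Dcx was at 6.23 CPM in siHsc70 and 33.2 CPM in siSCR, and Elavl3 at 21.5 CPM in siHsc70 and 62.5 CPM in siSCR. Snap25, named after its values were seen, was at 20.07 CPM in siHsc70 and 10.03 CPM in siSCR. Of the 12 lineage genes of oligodendrocytes 8 were at least 2-fold lower in siHsc70, where 5.15% of all measured genes were. Among the 8 was Gpr17, at 31.8 CPM in siHsc70 and 352 CPM in siSCR. The part of these cell types, and of the lower lineage genes, in the levels of the interferon-stimulated genes was not tested.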

How the data were processed

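Single libraries of siHsc70 and siSCR cells were compared. The estimated counts deposited by the authors are reads per gene before scaling, per the file headers, and 26.7% of the siHsc70 values and 26.6% of the siSCR values are not whole (off by over 0.001). The deposited TPM and FPKM values are scaled for length and library size, per the file headers. For the aligner, the counter and the use of strand, each is not given in the sources used here. Build mm39 is named in the submitters' processing notes, while 16783 of the 18049 gene IDs match rat RefSeq genes, so no coordinates are given for the table.

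Counts were rounded and scaled by TMM (edgeR 4.0.16, R 4.3.3; factors 0.992 for siHsc70, 1.01 for siSCR). Log2 differences were computed from these deposited counts with a pseudocount of 1, and exact intervals with scipy 1.17.1. With 1 library per group there is no test. The procedure was tested on simulated data. All list symbols were matched by symbol, RefSeq symbol or synonym.

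The members and the gene lists were chosen with earlier results of these data known. Genes named were the members, 7 partner genes, and from every list at most 2 genes past 2-fold in each direction, or else the one furthest from 0. Any other gene, further markers included, was named after its values were seen. No genes of similar pattern were named, as 2 libraries give only a ratio. Some genes that this rule names are not reported here. The planned comparison of the IFITM proteins was not run.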

Additional observations from a re-analysis of the deposited data

How the results depend on the processing

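Alternatives were DESeq2 size factors (DESeq2 1.42.0), library totals, upper-quartile factors, the deposited TPM and FPKM, pseudocounts of 0.1 and 5, minimum means of 0 and 5 CPM, and a 1.5-fold rule. The number of the 9 genes called higher was 1 under each but the 1.5-fold rule, a lower cut that 4 genes passed. The median of the 9 genes ran from 0.25 (TPM) to 0.42, and that of the antiviral list from 0.35 (TPM) to 0.54. That of the presentation list ran from 0.40 (TPM) to 0.59. In TPM the median of all measured genes was itself at -0.13. Pseudocount 5 lowered Bst2 to 1.65 and Ifitm2 to 0.57, as it must for low genes. Over all measured genes, those at least 2-fold higher numbered 518 (pseudocount 0.1), 132 (pseudocount 5), 189 in TPM and 202 in FPKM, against 310, and the number lower was 418 with a pseudocount of 5, against 696. The antiviral list held 5 genes at least 2-fold higher with a pseudocount of 0.1. Stat6 lost its call in TPM, in FPKM and with a pseudocount of 5, and Aim2 with a pseudocount of 5 or a minimum of 5 CPM. Counts of 47 to 62 limit what could be seen for Isg15 and, in siSCR, for Irf7 and Bst2. No paired analysis was possible because each group has 1 library.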
